A study of Mus musculus with 8 samples.

Results

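Wide peaks found with empty vector only are accessible regions of at least 500 bp that were called in MIN6 cells transfected with an empty plasmid and that no peak overlapped, by even 1 bp, in MIN6 cells transfected with a Klf4 plasmid. On chromosomes 1 to 19 and X, 2745 of the 54372 wide empty vector peaks met this rule, which is 5.05%. The same rule turned round, wide Klf4 peaks without an empty vector counterpart, was met by 14879 of 65669 (22.7%), and empty vector peaks of any width lacked a counterpart in 18788 of 100049 cases (18.8%). The Klf4 list was the larger, with 128499 peaks over 84.1 Mb against 100049 over 65.9 Mb. An empty vector peak thus had more to overlap than a Klf4 peak had. The rule uses the contrast of the 2 lists, so these shares are a description and carry no test.

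MIN6 cells come from a mouse insulinoma, grow as an established line and stand in for pancreatic beta cells. The labels give their genotype as WT. The assay was ATAC-seq, with 4 libraries of cells transfected for 48 hours with the vector pcDNA 3 and 4 libraries of cells transfected for 48 hours with pGloMyc-Klf4. Both groups thus went through lipid transfection with a plasmid. The files hold 1 merged peak list per plasmid, with no value for a single library, so the spread between libraries is unknown and no test could be made, and the read depth behind a peak is unknown. All intervals below are 95% Wilson intervals over peaks, which cover counting error only, and peaks of a list are not replicates.

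Open chromatin is found at promoters and at distal elements. Promoters of active genes are open in most cell types and are often rich in CG dinucleotides, while distal elements, in introns and between genes, differ more from cell type to cell type and carry much of the identity of a cell. Klf4 belongs to the Krüppel-like zinc finger proteins, which recognise CACCC and related GC-rich letters in DNA, and it can activate as well as repress genes. A peak caller reports a region where the tags exceed a local background, so a region that drops out of a list has fallen under the caller's limit and need not have closed.

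The label of the cells was checked on the empty vector list. All 8 beta cell markers examined had a peak in the gene body or within 10 kb of it, from 1 at Ins1 to 7 at Slc2a2, 31 in all, and none of these was a wide empty-vector-only peak. Marker genes of other cell types also had peaks: 2 of 4 acinar genes (0 to 3 peaks, none at Cpa1 and Amy2a5), 2 of 3 ductal genes (0 to 2, none at Sox9), 3 of 4 macrophage genes (0 to 5, none at Adgre1), 2 of 3 endothelial genes (0 to 9, none at Kdr) and 3 of 3 fibroblast genes (2 to 9). A peak at a marker gene is open chromatin and not expression. Of the peaks at these other markers 1, at Pecam1, was a wide empty-vector-only peak.

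The sequences below are the coding gene promoters under the strongest of these regions, shown because the Klf4 gene's own promoter is among them. Only 25 of the 2745 regions overlapped the promoter sequence of a coding gene in the RefSeq table for GRCm38.p6, and in 12 promoters the whole 250 bases before the gene start lay under the region. The 5 of these with the highest −log10 q are printed 5′ to 3′ along the gene's strand. They were chosen after their values were seen and do not stand for the other promoters touched, whose composition is given further on. The −log10 q is the peak caller's false discovery rate on a negative log scale, so that 2 means a q of 0.01. Capitals mark CACCC and GGGCGG on either strand (GGGTG and CCGCCC on the other), the kinds of site that Klf4 and related factors bind.

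Klf4 (chr4:55532476-55532725, minus strand, mm10), −log10 q 32.2:
Klf4: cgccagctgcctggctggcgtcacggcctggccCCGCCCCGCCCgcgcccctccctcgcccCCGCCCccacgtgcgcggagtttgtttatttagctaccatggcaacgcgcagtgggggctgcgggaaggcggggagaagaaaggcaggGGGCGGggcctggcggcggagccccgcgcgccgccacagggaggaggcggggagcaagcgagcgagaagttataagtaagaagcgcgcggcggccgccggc
Yjefn3 (chr8:69893984-69894233, minus strand), −log10 q 8.14:
Yjefn3: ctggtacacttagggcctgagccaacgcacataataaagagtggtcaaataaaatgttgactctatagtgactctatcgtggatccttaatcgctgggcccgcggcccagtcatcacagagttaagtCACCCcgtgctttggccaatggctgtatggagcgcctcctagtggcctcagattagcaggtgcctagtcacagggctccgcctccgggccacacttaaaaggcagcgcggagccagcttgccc
8030474K03Rik (chrX:101794406-101794655, plus strand), −log10 q 6.42:
8030474K03Rik: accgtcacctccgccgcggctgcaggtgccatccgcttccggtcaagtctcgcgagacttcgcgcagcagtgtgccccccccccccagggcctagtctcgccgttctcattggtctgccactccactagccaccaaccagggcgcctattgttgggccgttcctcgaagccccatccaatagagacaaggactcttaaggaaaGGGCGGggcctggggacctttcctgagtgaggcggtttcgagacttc
Gm4779 (chrX:101794446-101794695, minus strand), under the same region:
Gm4779: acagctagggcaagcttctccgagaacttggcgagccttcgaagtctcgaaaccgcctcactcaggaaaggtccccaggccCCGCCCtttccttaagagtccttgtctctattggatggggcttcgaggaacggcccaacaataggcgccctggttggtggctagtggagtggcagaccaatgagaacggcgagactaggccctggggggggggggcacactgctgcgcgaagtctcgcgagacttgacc
Gpr35 (chr1:92972869-92973118, plus strand), −log10 q 4.55:
Gpr35: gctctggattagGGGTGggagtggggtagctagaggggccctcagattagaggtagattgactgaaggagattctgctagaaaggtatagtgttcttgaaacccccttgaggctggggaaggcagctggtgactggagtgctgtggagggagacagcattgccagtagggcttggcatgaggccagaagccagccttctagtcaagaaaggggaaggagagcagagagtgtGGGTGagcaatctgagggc

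The Klf4 sequence stood apart in composition. It held 32 CG dinucleotides and had a GC content of 74%, with 4 GGGCGG matches, some of them overlapping, and no CACCC match. Yjefn3 had 11 CG dinucleotides and 1 CACCC match in a GC content of 55.2%. The paired genes 8030474K03Rik and Gm4779 start from opposite strands of the same stretch, so their sequences share most bases, with 18 and 15 CG dinucleotides and the same GGGCGG match. Gpr35, which encodes a G protein-coupled receptor, had 2 CACCC matches and no CG dinucleotide in a GC content of 55.2%.

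The region at the Klf4 gene was the strongest of all 2745. It lay at chr4:55532451-55533410, was 960 bp wide and reached from 935 bp upstream of the gene start to 24 bp inside the gene. The authors' values for it were 32.2 for −log10 q and 3.04 for the fold enrichment over local background. It ranked 19929 of the 100049 peaks of its list. The Klf4 list had no peak over the promoter. Its nearest peak, 1462 bp away inside the gene body at chr4:55529721-55530988, was the strongest of that list, with a −log10 q of 17134. The empty vector peak at that place, chr4:55529791-55531758, had a −log10 q of 12.8. The expression plasmid carries Klf4 sequence, and reads from it cannot be told apart here from reads of the gene itself. Whether the signal there bears on the missing promoter peak was not tested. A peak within 10 kb upstream was called in both lists, with −log10 q of 123 with the empty vector and 83.0 with Klf4. Nkx2-2, the other factor in the series title, had 6 peaks within 10 kb in both lists, all with a counterpart, and hence no wide empty-vector-only peak.

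**Figure D1:**
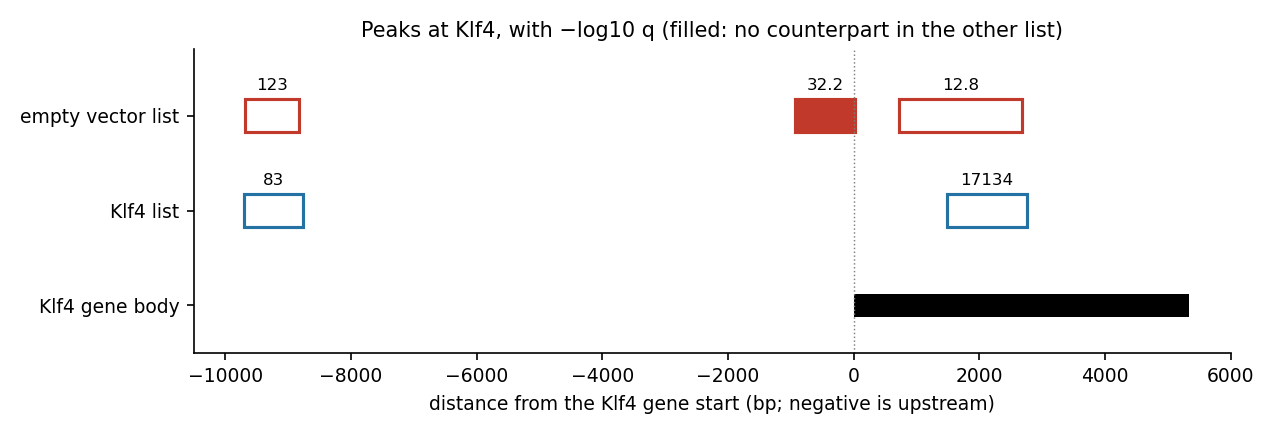
Peaks of both lists around Klf4, by distance from the gene start in bp (negative is upstream), with the −log10 q of each peak above it and the gene body in black. Filled boxes have no counterpart in the other list: the 1 filled box is the empty vector peak over the promoter (−log10 q 32.2), and the Klf4 list has its strongest peak (17134) downstream of it.

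Apart from Klf4, the strongest regions lay inside or near genes of varied function. At chr15:98799189-98799820, 3961 bp from Ddn, which encodes the synaptic protein dendrin, −log10 q was 26.9. At chr2:5009735-5010317, inside Mcm10, a DNA replication initiation factor, it was 26.6. At chr8:85111867-85112729, inside the zinc finger gene Zfp791, it was 23.0. These and the Klf4 promoter were the only 4 of the 2745 regions with a −log10 q of 20 or more.

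The next 6 had a −log10 q from 14.8 to 19.4. They lay 3033 bp from Kcnj6, which encodes a G protein-gated potassium channel (chr16:94741184-94741946, −log10 q 19.4), and inside Wfdc1, a secreted protein gene (chr8:119675644-119676884, 18.9). Others lay inside Bicra, a subunit of SWI/SNF chromatin remodelling complexes (chr7:15975878-15976506, 18.4), and Chrm5, a muscarinic acetylcholine receptor (chr2:112523334-112523983, 17.2). The last ones lay inside Med13l, a Mediator subunit (chr5:118673865-118674736, 16.6), and Cd82, a tetraspanin (chr2:93421433-93421936, 14.8). None of these 9 regions beyond Klf4 lay far from Klf4 list signal. The nearest Klf4 peak was 774 to 6426 bp away, and in 6 of the 9 it was one that both lists had.

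In 3 of these 10 regions a high −log10 q went with a low fold enrichment. The fold was 3.04 at Klf4, 3.02 near Ddn and 3.09 near Kcnj6. Among overlapped wide empty vector peaks with a −log10 q within 20% of theirs, the median fold was 6.38, 6.23 and 5.80, and 87 of 5446, 105 of 5924 and 173 of 6416 of those peaks had a lower fold. Zfp791 was at the other end, with a fold of 7.99, above 97.1% of the peaks of similar −log10 q.

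Most of the regions were weak. The median −log10 q was 2.36 (quartiles 1.67 and 3.61, range 1.03 to 32.2), and 1048 regions (38.2%) were under 2. A −log10 q of 5 or more was reached by 341 (12.4%), and one of 10 or more by 49 (1.79%). The 51627 overlapped wide empty vector peaks had a median of 20.2, and 87.4% of them reached 5. Fold enrichment had a median of 2.86 (quartiles 2.60 and 3.29, highest 7.99) against 5.36 in the overlapped peaks.

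The wide empty vector peaks without a counterpart were thus concentrated at the weak end of the list. Of wide empty vector peaks with a −log10 q from 1 to 2, 48.8% (interval 46.7 to 50.9%) had no Klf4 counterpart. This share was 20.1% (19.2 to 21.1%) from 2 to 5, 3.37% (3.01 to 3.77%) from 5 to 10, 0.416% (0.311 to 0.556%) from 10 to 20, and 0.0154% (0.00599 to 0.0396%), or 4 of 25986 peaks, at 20 or more. Wide Klf4 peaks without an empty vector counterpart made up 58.2% (56.0 to 60.4%), 44.9%, 33.0%, 22.7% and 4.89% of the same strata. The Klf4 share was the higher in each stratum. How far the larger size of the Klf4 list bears on this was not tested.

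**Figure D2:**
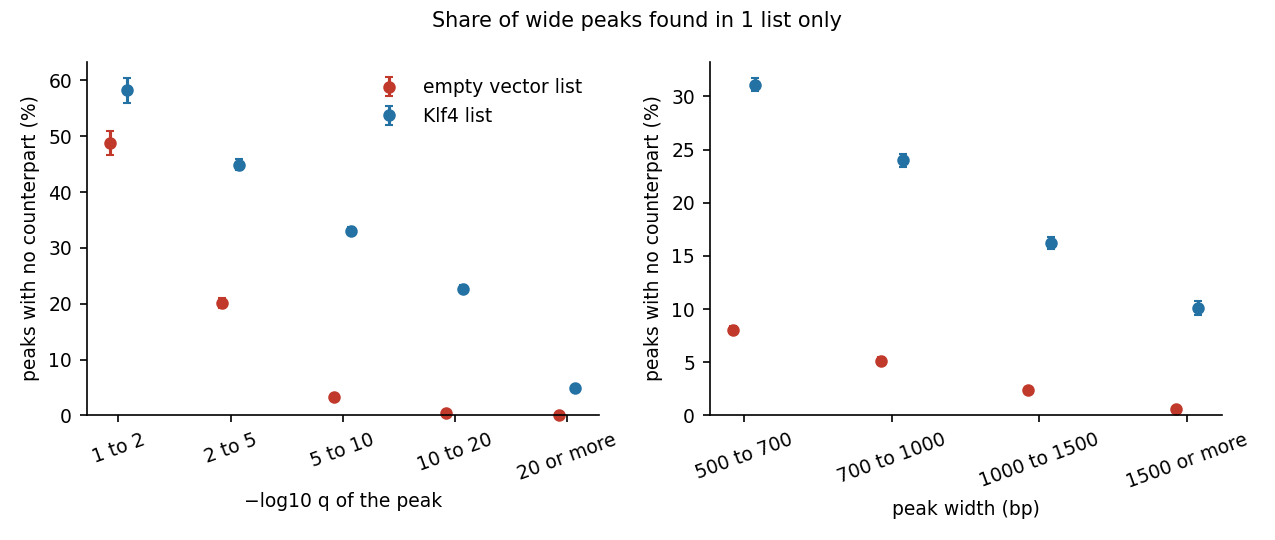
Share of wide peaks found in 1 list only (%), by −log10 q of the peak (left) and by peak width in bp (right), for the empty vector list (red) and the Klf4 list (blue), with 95% Wilson intervals. The empty vector share falls from 48.8% in the weakest stratum to 0.0154% in the strongest, and the Klf4 share from 58.2% to 4.89%.

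Width was the other side of the rule. The regions had a median width of 673 bp (quartiles 568 and 829 bp, range 500 to 2452 bp) and covered 2.02 Mb together. Overlapped wide empty vector peaks had a median of 826 bp and Klf4-only wide peaks one of 733 bp. From 500 to 700 bp, 1528 of 19054 wide empty vector peaks (8.02%) had no counterpart, and at 1500 bp or more 32 of 5561 (0.575%) had none. The rule itself favours such a fall, since a wider peak has more bases that a Klf4 peak can touch. Holding strength alike does not remove this, and the fall was present there too. Between a −log10 q of 2 and 5 the share went from 23.7% (22.2 to 25.2%) at 500 to 700 bp to 4.95% (3.15 to 7.68%) at 1500 bp or more. Within the 2745 regions the Spearman coefficient between width and −log10 q was −0.01. It was 0.03 in narrow empty-vector-only peaks, 0.05 in Klf4-only wide peaks and 0.29 in the overlapped peaks. These coefficients run over peaks of 1 list and carry no p.

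Around the width limit nothing stepped. The 125 empty-vector-only peaks up to 10 bp under the limit had a median −log10 q of 2.91, and the 109 in the first 10 bp from it had one of 3.16. The overlap limit was as smooth. The 23 regions within 49 bp of a Klf4 peak had a median −log10 q of 1.90, and the 56 wide empty vector peaks with 1 to 49 bp under a Klf4 peak had one of 1.67.

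The 5 widest regions were all weak, with a −log10 q from 1.29 to 2.59. The widest, 2452 bp at chr9:71911964-71914415, lay inside Tcf12, which encodes a basic helix-loop-helix factor. The next, 2405 bp at chr1:23683464-23685868, lay 76057 bp from B3gat2, a glucuronosyltransferase gene. The others overlapped Eif3l, a translation initiation factor subunit (2322 bp, chr15:79083227-79085548), Bag6, a chaperone of membrane protein targeting (2205 bp, chr17:35146194-35148398), and Cacng4, a transmembrane regulator of AMPA receptors (2168 bp, chr11:107784053-107786220). The middle of the region at Bag6 lay at 99.8% of the gene's length from its 5′ end, so part of it ran past the gene. The nearest Klf4 peak was narrower in each of the 5 cases, 328 to 651 bp wide and 744 to 19596 bp away.

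Few of the regions lay right beside a Klf4 peak, though the share was higher than in the other list-specific sets. The nearest Klf4 peak lay a median of 4027 bp away (quartiles 1550 and 9355 bp). It lay within 500 bp for 137 regions (4.99%), within 1 kb for 417 (15.2%), from 1 to 5 kb for 1116 (40.7%) and at 100 kb or more for 42 (1.53%). Narrow empty-vector-only peaks had a Klf4 peak within 500 bp in 2.37% and within 1 kb in 10.8% of cases. For Klf4-only wide peaks and the empty vector list these shares were 1.63% and 8.66%. The median distances in these sets were 4950 and 4794 bp. The nearest Klf4 peak had a higher −log10 q than the region in 2289 of 2745 cases (83.4%). These nearest peaks were not strong for their list, with a median −log10 q of 6.62 against 7.61 over the whole Klf4 list. The regions themselves had a median of 2.36. In 1144 cases (41.7%, interval 39.8 to 43.5%) the nearest Klf4 peak was a Klf4-only peak, and Klf4-only peaks made up 36.7% (36.5 to 37.0%) of the Klf4 list. Within 50 kb on both sides of a region there was a median of 8 empty vector peaks, itself included, and 8 Klf4 peaks. Overlapped wide peaks had medians of 8 and 10.

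The 3 regions farthest from a Klf4 peak stood alone in both lists. The first, chrX:31158254-31160002, was 1344646 bp from the nearest Klf4 peak and 38837 bp from Btbd35f29. The second, chr6:26708539-26709071, was 777094 bp from a Klf4 peak and 566049 bp from Grm8, a metabotropic glutamate receptor gene. The third overlapped Slitrk4, a neuronal adhesion gene (chrX:64275952-64276875, 604811 bp). All 3 were weak, with a −log10 q of 1.69, 1.68 and 2.08, and each was the only empty vector peak within 50 kb. These were chosen after their values were seen.

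Relative to coding genes, 1505 of the 2745 regions (54.8%, interval 53.0 to 56.7%) overlapped a gene body. Another 55 (2.00%) lay up to 1 kb outside, 266 (9.69%) at 1 to 10 kb, 14.3% at 10 to 50 kb, 167 (6.08%) at 50 to 100 kb, 302 at 100 to 500 kb and 58 (2.11%) at 500 kb or more. The gene body share was 62.4% (62.0 to 62.8%) for overlapped wide empty vector peaks, 60.9% (60.1 to 61.7%) for Klf4-only wide peaks and 52.1% (51.3 to 52.9%) for empty-vector-only peaks under 500 bp. The 302 regions at 100 to 500 kb make a share with an interval of 9.89 to 12.2%, and there these 3 sets had 7.34%, 6.69% and 12.4%. At 500 kb or more they had 1.07%, 0.222% and 2.84%. In these 3 measures the wide empty-vector-only peaks were nearer to the narrow empty-vector-only peaks than to either wide set.

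**Figure D3:**
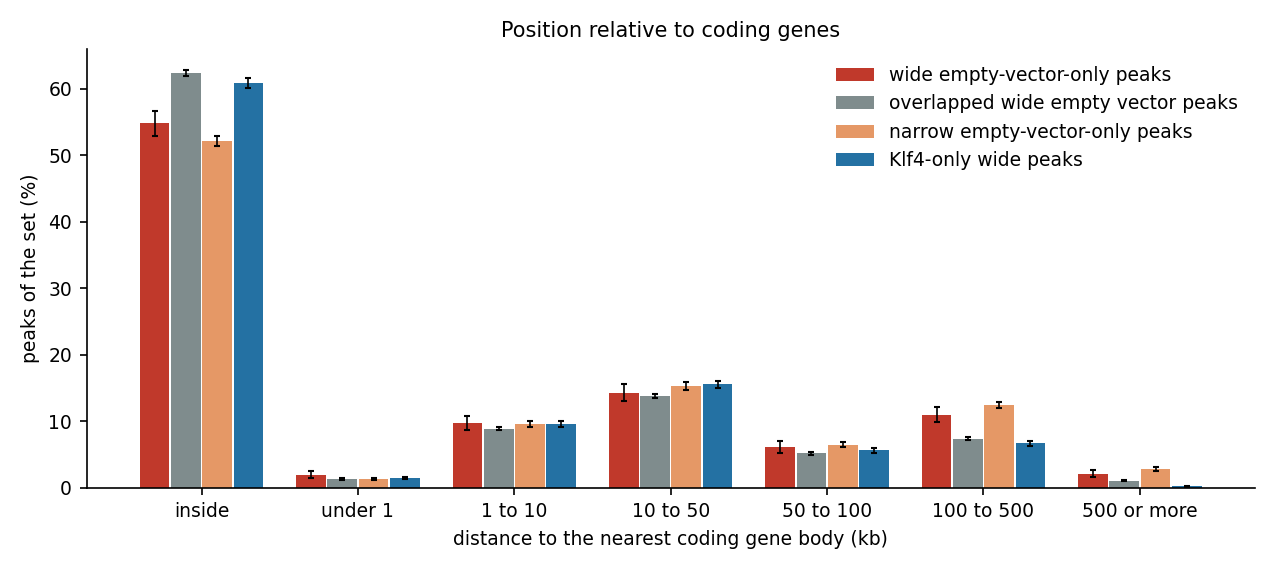
Share of peaks (%) inside a coding gene body and at increasing distance from the nearest one (kb), for wide empty-vector-only peaks (red), overlapped wide empty vector peaks (grey), narrow empty-vector-only peaks (orange) and Klf4-only wide peaks (blue), with 95% Wilson intervals. Wide empty-vector-only peaks lie inside gene bodies in 54.8% of cases, against 62.4% for overlapped wide peaks, and more often at 100 to 500 kb (302 of 2745, against 7.34%).

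The strength of a peak went along with part of this. Within strata of −log10 q the gene body shares of wide empty-vector-only and overlapped peaks came close. They were 56.5% (53.5 to 59.5%) and 59.2% (56.3 to 62.1%) from 1 to 2, 54.0% (51.3 to 56.6%) and 55.9% (54.6 to 57.3%) from 2 to 5, and 53.1% (47.4 to 58.7%) and 53.7% (52.6 to 54.8%) from 5 to 10. The intervals overlapped in all 3 strata. Klf4-only wide peaks had 60.4%, 58.3% and 61.5% there. By width, with strength not held alike, wide empty-vector-only and overlapped peaks were close only among the narrower ones. The shares were 53.5% and 52.7% from 500 to 700 bp and 57.3% and 61.3% from 700 to 1000 bp. From 1000 to 1500 bp they were 53.6% (47.9 to 59.2%) and 71.2% (70.4 to 72.0%), and at 1500 bp or more 59.4% (42.3 to 74.5%) and 76.7%.

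At gene starts a difference was present within strata too. Only 44 of the 2745 regions (1.60%) lay within 1 kb of a start of a coding gene, against 19.6% of overlapped wide peaks, 5.47% of Klf4-only wide peaks and 0.841% (0.711 to 0.995%) of empty-vector-only peaks under 500 bp. The low share at gene starts was thus not particular to the wide ones among empty-vector-only peaks. Just 19 regions covered a start. From a −log10 q of 1 to 2 the shares were 1.53% (0.942 to 2.47%) and, for overlapped peaks, 5.64% (4.43 to 7.17%). From 2 to 5 they were 1.47% (0.957 to 2.27%) and 4.85% (4.31 to 5.46%). From 5 to 10 they were 2.40% (1.17 to 4.86%) and 4.84% (4.40 to 5.32%), with overlapping intervals. Klf4-only wide peaks had 2.87%, 4.11% and 6.44%, and narrow empty-vector-only peaks had 1.12%, 0.755% and 0.583%. At like width the shares were apart too, 1.18% (0.746 to 1.85%) and, for overlapped peaks, 4.19% (3.90 to 4.49%) from 500 to 700 bp. Wide empty-vector-only peaks had the lowest share of the 3 wide sets in these 3 strata of −log10 q, and in the first 2 their interval lay below that of overlapped peaks. Peaks of a list are not independent, and no test between sets was made.

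**Figure D4:**
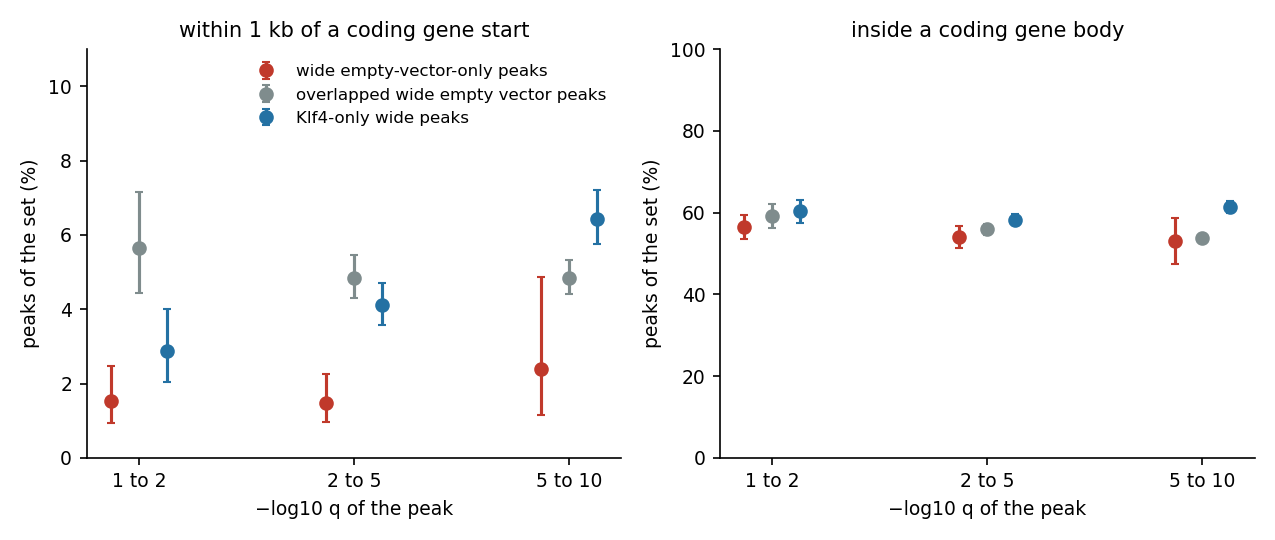
Share of peaks (%) within 1 kb of a coding gene start (left) and inside a coding gene body (right), in 3 strata of −log10 q, for wide empty-vector-only (red), overlapped wide empty vector (grey) and Klf4-only wide peaks (blue), with 95% Wilson intervals. At gene starts the red points sit at 1.47 to 2.40%, below the grey points at 4.84 to 5.64%, while inside gene bodies the red and grey intervals overlap.

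Either end of a coding gene was within 1 kb for 164 regions (5.97%, 5.15 to 6.92%), against 24.3% of overlapped wide peaks, 11.9% of Klf4-only wide peaks and 3.30% of narrow empty-vector-only peaks. At like strength the gap to overlapped peaks was smaller. From a −log10 q of 1 to 2 the shares were 7.35% (5.92 to 9.09%) and 11.6% (9.88 to 13.7%), from 2 to 5 they were 4.50% (3.52 to 5.74%) and 8.81% (8.08 to 9.59%), and from 5 to 10 they were 8.22% and 8.21%. Klf4-only wide peaks had 7.23%, 10.2% and 13.2% there.

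Among the 1176 regions whose host gene has a strand in the promoter table, 247 lay in the first of 4 equal parts of the gene from the 5′ end, 319 in the second, 299 in the third and 311 in the last. The other sets were not split in this way, so these counts have no background beside them.

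Promoters that did lie under these regions had few CG dinucleotides beside those under overlapped peaks. Any promoter sequence of the table, 300 bases from 250 before to 50 after a start, was touched by 43 regions (1.57%). This share was 20.9% for overlapped wide, 5.98% for Klf4-only wide and 0.898% for narrow empty-vector-only peaks. For each of the 43 regions the promoter with most bases under it was taken, which leaves 23 of the 25 coding cases above. The median promoter had 5 CG dinucleotides (range 0 to 39) and a GC content of 52.3%, close to the 7 and 52.7% of all 32851 promoter sequences. Under overlapped wide peaks the median was 21 CG dinucleotides and a GC content of 61.3%, and under those with a −log10 q under 5 it was 10 and 57%. Under Klf4-only wide peaks it was 8 and 58.3%, so a count far below that of overlapped peaks was not particular to the empty vector list. Of these 43 promoters, 23 (53.5%, 38.9 to 67.5%) belonged to coding genes, against 89.2% under overlapped wide peaks, 70.8% under the weak ones among them and 70.4% under Klf4-only wide peaks. The Klf4 promoter, with its CG-rich sequence shown above, was far above this median.

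Motifs were counted in these 300 bases on both strands as plain letter matches. CACCC was in 26 of 43 (60.5%, 45.6 to 73.6%), against 57.5% of all promoters, 63.5% under overlapped wide peaks, 69.1% under those with a −log10 q under 5 and 78.8% under Klf4-only wide peaks. GGGCGG was in 9 (20.9%, 11.4 to 35.2%), against 35.7%, 64.3%, 44.1% and 48.7% in the same order. TGACTCA, the AP-1 site, was in 4 (9.30%, 3.68 to 21.6%), against 5.20%, 3.61%, 5.62% and 6.29%. CCAAT was in 17 (39.5%, 26.4 to 54.4%), against 37.4%, 37.8%, 24.7% and 26.0%. CANNTG, the E-box, was in 39 (90.7%, 78.4 to 96.3%), against 72.3%, 63.9%, 74.2% and 74.3%. With 43 promoters the intervals are wide, and no test between sets was made.

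Of the 25 regions over a coding gene's promoter, 7 more are given here as examples. They lay at Mstn, the muscle growth inhibitor myostatin, Taar2, a trace amine receptor, Ugt1a1, the bilirubin-conjugating enzyme, and Cd37, a leukocyte tetraspanin. The others lay at Pgam2, the muscle form of phosphoglycerate mutase, Igf1, insulin-like growth factor 1, and E2f2, a cell cycle transcription factor. Their −log10 q values were 1.87 at Mstn, 2.56 at Taar2, 2.02 at Ugt1a1, 2.00 at Cd37, 2.03 at Pgam2, 2.18 at Igf1 and 3.30 at E2f2. At Pgam2 the nearest Klf4 peak was only 39 bp away, at Igf1 it was 5280 bp away. These examples were picked after their values were seen and stand for no group.

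The 1505 intragenic regions fell in 1309 coding genes. A region over several genes was counted in each of them. Of these genes, 1112 held 1 region, 162 held 2 and 35 held 3 or more. The host gene of a region, the shortest where several overlap, had a median length of 104 kb, against 65.9 kb for overlapped wide peaks, 62.05 kb for Klf4-only wide peaks and 98.2 kb for overlapped wide peaks with a −log10 q under 5. Regions with a −log10 q under 5 had a median of 109 kb. Weak overlapped peaks thus had long hosts as well.

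Robo2, the receptor for Slit proteins in axon guidance and a gene of 1555 kb, held the most, 6 regions among 35 wide empty vector peaks (17.1%). The share over all wide empty vector peaks was 5.05%, and this gene and those that follow were chosen for their high counts, so their shares are a description only. The 6 regions in Robo2 had −log10 q values of 2.13, 1.94, 2.40, 3.14, 2.48 and 1.36 in order along the chromosome, and the nearest Klf4 peak was 811 to 51150 bp away. None of the 21 wide Klf4 peaks in Robo2 was Klf4-only, while 22.7% of all wide Klf4 peaks were. Every list-specific wide peak in Robo2 was thus an empty vector peak.

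Iqgap2, a scaffold protein of small GTPase signalling, held 5 of 15 wide empty vector peaks (33.3%), with −log10 q values of 1.85, 1.67, 1.93, 1.59 and 3.44. In it 2 of 13 wide Klf4 peaks were Klf4-only. Tiam1, an exchange factor for Rac, held 4 of 18 (−log10 q 2.03, 1.78, 5.06 and 3.67) beside 10 Klf4-only among 23 wide Klf4 peaks, so that list-specific peaks of both kinds lay in the same gene.

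Cadps, which primes dense-core vesicles such as insulin granules for release, held 4 of 18 wide empty vector peaks, with −log10 q values of 2.34, 2.39, 1.92 and 6.86. The strongest of these, chr14:12768934-12769511, was 18821 bp from the nearest Klf4 peak. Cdkal1, a tRNA-modifying enzyme whose locus is linked to type 2 diabetes risk in people, held 4 of 19, with −log10 q values of 2.24, 1.59, 5.52 and 3.71, and 1 of its 16 wide Klf4 peaks was Klf4-only. In Cadps 2 of 11 wide Klf4 peaks were Klf4-only.

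The other genes with most regions were Rad51b, a recombination factor (4 of 24, −log10 q 1.53 to 6.33), Dscam, a neuronal adhesion molecule (4 of 41, 1.16 to 2.68), and Grid1, a glutamate receptor of the delta class (4 of 29, 1.18 to 3.02). Myo1h, an unconventional myosin gene of 75.3 kb, held 3 of 7, and Kdm2a, a histone H3 lysine demethylase gene of 82.6 kb, held 3 of 6. Kdm2a had none of 4 wide Klf4 peaks without a counterpart and Myo1h had 4 of 8. With 3 to 6 regions a gene these counts are small, and the 10 genes were ranked by this same count, with ties settled by the count per 100 kb of gene.

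Gene lists were read by nearest coding gene. Of the wide empty vector peaks nearest to 20 beta cell genes, 8 of 115 (6.96%, 3.57 to 13.1%) had no counterpart, and for 14 alpha cell genes it was 5 of 64 (7.81%, 3.38 to 17.0%). For Krüppel-like factors it was 7 of 125 (5.60%, 2.74 to 11.1%), for exocytosis genes 5 of 91 (5.49%, 2.37 to 12.2%) and for AP-1 and immediate early genes 1 of 47 (2.13%, 0.377 to 11.1%). The interval of each list held the 5.05% of all wide empty vector peaks.

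Among beta cell genes the regions lay at 7 of 20. Slc30a8, the zinc transporter of insulin granules, had 2 of its 16 wide empty vector peaks, 1 inside the gene (−log10 q 1.36) and 1 at a distance of 141910 bp (4.26). Ins2, an insulin gene, had 1 of 3, 57322 bp away, 1153 bp wide and with a −log10 q of 4.38. Glp1r, the receptor of the incretin GLP-1, had 1 inside the gene (2.21), and G6pc2, the islet glucose-6-phosphatase, had 1 (2.32). The transcription factor gene Pax6 had 1 inside the gene (1.56), and Isl1 and Rfx6 had 1 each at 4247 bp (1.76) and 20216 bp (1.57). Pdx1, Nkx6-1, Mafa, Neurod1 and Nkx2-2 had none.

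Among alpha cell genes Pcsk2, the prohormone convertase that cuts proglucagon to glucagon and is also made in beta cells, had 3 of 22 wide empty vector peaks. Of these, 2 lay inside the gene, 1952 bp wide with a −log10 q of 3.15 and 879 bp wide with 1.43, and 1 lay 4372 bp outside (1.88). No Klf4-only wide peak had Pcsk2 as its nearest gene. Irx2, a homeobox gene of alpha cells, had 1 of 7 (3.86), and Foxa2, a forkhead factor of the endoderm, had 1 of 13 at 75113 bp (1.45).

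In the Krüppel-like family the regions lay at Klf4 (1 of 20 wide empty vector peaks), Klf6 (2 of 10), Klf7 (2 of 19), Klf12 (1 of 14) and Klf14 (1 of 16). Only the one at Klf4 was within 20 kb of its gene. Those at Klf6 were 318943 and 545026 bp away, with −log10 q values of 3.10 and 1.62. Of exocytosis genes, Rims2, an active zone protein, had 2 of 14 inside the gene (1.55 and 1.61). Rph3al, a Rab effector, Syt9, a calcium sensor of granule fusion, and Unc13a, a priming factor, had 1 each inside the gene (3.29, 1.55 and 2.01). Fos was the only immediate early gene with a region, 46327 bp away (2.15).

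Of gene families defined by symbol, zinc finger genes had 29 of 838 wide empty vector peaks without a counterpart (3.46%, 2.42 to 4.93%), the single family whose interval lay below 5.05%. Solute carriers had 56 of 1130 (4.96%), potassium channels 22 of 421 (5.23%), cadherins 10 of 216 (4.63%), protocadherins 8 of 133 (6.02%), olfactory receptors 9 of 128 (7.03%) and vomeronasal receptors 5 of 47 (10.6%, 4.63 to 22.6%). The nearest coding gene was a different one for most regions, 2243 genes in all, of which 1857 were nearest to 1 region and 1 gene was nearest to 6.

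Along the chromosomes, neighbouring regions were a median of 441287 bp apart (quartiles 151742 and 1146097 bp, smallest gap 697 bp). Another of the 2745 regions lay within 100 kb of 870 of them (31.7%, 29.98 to 33.5%). To account for the uneven density of peaks, the wide empty vector peaks just before and after each region were examined, and 352 of 5485 (6.42%, 5.80 to 7.10%) also lacked a counterpart, against 5.05% of all. Each pair of adjacent regions enters this count from both sides, so the interval is too narrow. These neighbours were somewhat weaker than the list, with 42.4% of them at a −log10 q of 20 or more against 47.8% of all wide empty vector peaks.

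The same neighbours were split by their own −log10 q, a choice made after seeing the data. From 1 to 2, 150 of 286 (52.4%, 46.7 to 58.2%) lacked a counterpart, against 48.8% of all wide empty vector peaks in that stratum. From 2 to 5 it was 148 of 814 (18.2%, 15.7 to 21.0%) against 20.1%. From 5 to 10 it was 46 of 985 (4.67%, 3.52 to 6.17%) against 3.37%, which lies below the interval. From 10 to 20 it was 8 of 1073 (0.746%, 0.378 to 1.46%) against 0.416%, and at 20 or more none of 2327 against 0.0154%. A peak between 2 regions counts as a neighbour of both, and 2 adjacent regions count as neighbours of each other. The intervals of these strata can thus be too narrow as well.

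**Figure D5:**
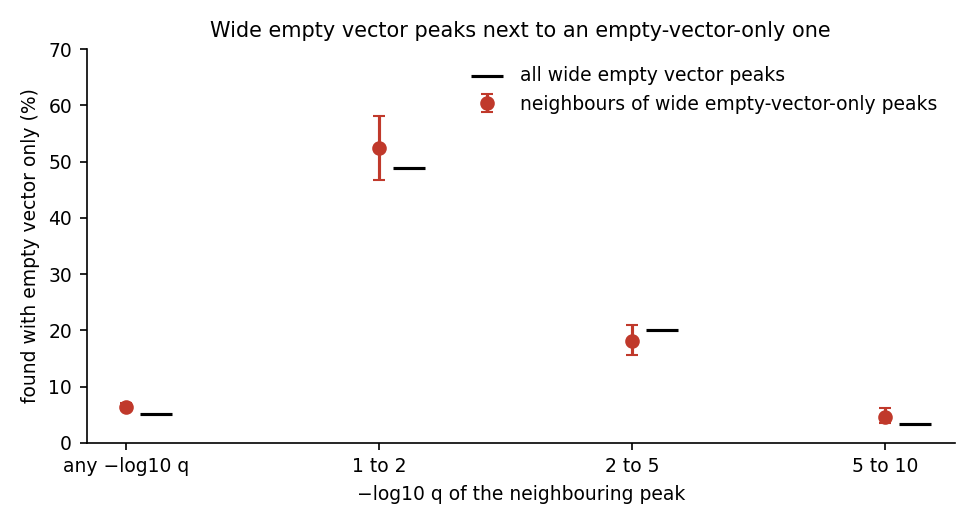
Share (%) of wide empty vector peaks next to a wide empty-vector-only peak that are themselves empty-vector-only (red, 95% Wilson intervals), beside the share over all wide empty vector peaks (short black lines), over any −log10 q and by the −log10 q of the neighbour. Over any −log10 q the red point is above its line (6.42% against 5.05%), and by strata the line lies within the interval from 1 to 2 and from 2 to 5 and below it from 5 to 10. Adjacent regions count from both sides, so the intervals can be too narrow.

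Most regions did not follow each other. Of the 2745 regions, 2403 had an overlapped wide peak, or a chromosome end, on both sides. Another 314 formed 157 pairs, 24 formed 8 runs of 3 and 4 formed 1 run. That longest run, chr4:41142553-41267174, crossed the ubiquitin pathway genes Ube2r2 and Ubap2 over 124622 bp, with −log10 q values of 1.81, 3.07, 1.66 and 1.98. In the same span the Klf4 list had 5 peaks, 4 of them Klf4-only. The 2 most compact runs of 3 lay by the olfactory receptor gene Olfr281 (chr15:98448393-98456983, 8591 bp, −log10 q 1.23 to 2.44) and near Mtres1 and Cd24a (chr10:43548942-43561506, 12565 bp, 1.16 to 2.18). When regions within 100 kb were linked, 1875 stood alone, 606 were in pairs and the largest chain had 6.

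By windows of 1 Mb, 1411 of the 2468 windows with a wide empty vector peak held at least 1 region, and 66 windows held 5 or more. Windows with fewer wide peaks had the higher share of empty-vector-only ones: 7.72% (6.17 to 9.61%) in windows with 1 to 4 wide peaks and 4.64% (4.38 to 4.92%) in windows with 40 or more. Peak strength was not held alike in this comparison. The fullest window was chr15:98000001-99000000 with 10 of 88 wide empty vector peaks (11.4%). It holds Olfr281, Lalba, the milk protein alpha-lactalbumin, and Ddn, and 30 of its 114 wide Klf4 peaks (26.3%) were Klf4-only. A −log10 q of 26.9 beside Ddn was followed by 4.74 near Senp1 and by 8 values from 1.23 to 2.48.

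Next came 3 windows with 8 regions each. On chromosome 16 from 94000001 to 95000000 they lay around Kcnj6, Sim2, Cldn14 and Ttc3 (8 of 72, 11.1%), with 17 of 75 wide Klf4 peaks Klf4-only. On chromosome 5 from 114000001 to 115000000 they lay in or near Myo1h, Acacb, an acetyl-CoA carboxylase gene, Svop, Fam222a and Trpv4 (8 of 72), and there 40 of 108 wide Klf4 peaks (37.0%) were Klf4-only. On chromosome 8 from 20000001 to 21000000 they made up 8 of 36 (22.2%), with 3 of 30 wide Klf4 peaks Klf4-only, and all 8 had a −log10 q from 1.14 to 2.32. The coding genes nearest to them are 9530057J20Rik, Gm40469 and Gm21119.

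By chromosome, the share of wide empty vector peaks without a counterpart ran from 3.87% (2.93 to 5.11%) on X to 6.05% (5.33 to 6.85%) on chromosome 1, where 227 of 3755 met the rule. Chromosomes 7 and 9 had 4.03% and 4.07%, and chromosomes 12, 15 and 16 had 5.65%, 5.65% and 5.74%. The order was not that of the Klf4-only wide peaks. Chromosome 7 had 26.0% of these against 20.6% on chromosome 1, while X was lowest in both, with 15.7%.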

How the data were processed

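The data are 2 peak lists in broadPeak format from 8 ATAC-seq libraries of MIN6 cells, 4 for each plasmid. The lists are named control and overexpression, which was taken as empty vector and Klf4. A kit for mRNA-seq libraries is given in the labels, beside the ATAC-seq assay. MACS2 made the peak calls, per the labels' design text. The submitters' processing notes also name Bowtie2, FastQC, DiffBind and the build mm10, and versions and options are not given in the sources used here. Whether reads or peaks of the 4 libraries were merged is not stated, nor how duplicates and the transposase offset were treated. The authors' deposited values are a fold enrichment per peak (a ratio over local background) and −log10 of the q-value. Their −log10 p was not used. The smallest −log10 q was 1.02 and 1.00 in the 2 lists. The deposited display score was not used. Depth sets how many weak peaks pass, and it is unknown.

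Peaks were compared by overlap of at least 1 bp, and fold enrichments were not compared between lists. Genes came from the RefSeq table of GRCm38.p6 (21887 coding genes), the build mm10 stands for. Gene starts came from the promoter table, which holds 17492 coding genes, so shares at gene starts are low estimates. These regions and the gene lists were chosen with earlier results of these data known. Named items are the 10 strongest and 5 widest regions, the 3 longest runs, the fullest windows (4 because of ties), the 10 genes with most regions, Klf4, Nkx2-2 and genes of 5 lists. The 3 regions farthest from a Klf4 peak, the 5 printed promoters and 7 more promoter examples fall outside this rule and were chosen after their values were seen. Alternatives were widths of 400, 700 and 1000 bp, other overlap rules, a −log10 q of at least 5, all sequences, genes of every biotype and other distances. The steps were tested on simulated data. The software was scipy 1.17.1, pandas 2.3.3, numpy 2.4.6 and matplotlib 3.10.9 under Python 3.11.15.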

Additional observations from a re-analysis of the deposited data

Results flagged for a closer look

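Scaffolds outside chromosomes 1 to 19 and X, which the comparisons did not use, held 16 wide empty vector peaks without a Klf4 counterpart among 99 wide empty vector peaks there. This is 16.2% (95% Wilson interval 10.2 to 24.7%), against 5.05% on the chromosomes used. They were singled out because signal appears outside the regions compared. Their −log10 q ran from 1.12 to 13.4. Chromosome Y held none among 22.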

How the results depend on the processing

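No paired analysis was possible because each plasmid has 1 merged list with no value per library, and for the same reason leaving out replicates was not run. A share moved where it left its own 95% interval, a number where it changed by over 1.5 times. Of 44 values under alternatives, 14 stayed and 30 moved. At minimum widths of 400, 700 and 1000 bp there were 4628, 1217 and 327 regions (7.03%, 3.45% and 1.81% of peaks of that width), neighbour shares of 8.26%, 3.87% and 1.84%, and 43.3%, 16.6% and 4.28% had another within 100 kb. With no Klf4 peak within 1 kb, 4.28% met the rule, the neighbour share was 5.76% and 27.2% had another within 100 kb. With under 50% covered by Klf4 peaks these were 12.8% (6936 regions), 14.6% and 58.5%. At a −log10 q of at least 5 they were 0.750% (341 regions), 1.47% and 7.62%. The neighbour share stayed above the background in each of these settings, though at 700 and 1000 bp the background lay within its interval. Each pair of adjacent regions enters the neighbour share from both sides here too, so its intervals are too narrow. At a −log10 q of at least 5 the lower bound lay only just above the background. Whether the neighbour share differs from the background in that setting is thus undecided. The share inside coding genes stayed between 53.1% and 56.5% in these 6 settings and was 64.1% with genes of every biotype. The share within 1 kb of a gene end was 7.65% at 1000 bp, 7.62% for strong regions only, 11.9% with every biotype and 10.7% with a window of 2500 bp. Another region lay within 50 kb of 18.4% and within 200 kb of 49.9%. The cause of these moves was not tested, except that a stricter width or strength leaves fewer regions. The settings of the 100 kb measure other than its distance were chosen after seeing the data.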
